A study of Mus musculus with 58 samples.

Results

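Tdo2 encodes tryptophan dioxygenase, and it was followed here with 5 further enzymes of the kynurenine pathway, Ido1, Afmid, Kmo, Kynu and Haao. The 6 genes were found by matching the Ensembl identifiers of the count table to these symbols, and are 6 of the 56953 genes in the table. Tdo2 was picked because of its levels in these same libraries, so its values are given as a description without a test. A count of 5 reads or above in more than 3 libraries was asked of a gene to be tested. It was met by 12464 genes, among them 2 of the 6 (Tdo2 and Afmid), and not by Ido1, Kmo, Kynu and Haao.

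The experiment asked how sex hormones affect gene expression in adipose stem cells (ASC), the fibroblast-like precursors of fat cells. C57BL6/J mice underwent castration (males) or ovariectomy (females) when 4 weeks old, and were killed at 10 weeks together with control males and females of the same age. CD45- CD31- CD34+ cells of the inguinal depot (iWAT) were sorted into DPP4- cells, called ASC1, and DPP4+ cells, called ASC2, and their RNA was measured by bulk Smart-seq3. There were 58 libraries: in ASC1 7 from control males, 8 from control females, 8 from castrated males and 3 from ovariectomized females, and in ASC2 8 from each. Which ASC1 and ASC2 libraries came from the same mouse is not given, and p-values measure the spread between libraries. Removal of the testes or ovaries takes away all of their hormones, not a single one.

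Tryptophan that is not built into protein or serotonin is mostly broken down to kynurenine. The opening of its indole ring is catalysed by Tdo2, best known from liver, or by Ido1, which is induced in immune cells by interferon. Afmid releases kynurenine, Kmo, Kynu and Haao carry it on toward quinolinate and NAD, and kynurenine also binds the aryl hydrocarbon receptor.

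Library totals lay between 106566 and 1421547 reads, with a median of 682423. Levels are given in CPM, a share of the library after TMM scaling of its size. Fibroblast markers (Pdgfra, Col1a1, Dcn, Lum and Cd34) summed to 3380 CPM or more in every library, and the ASC2 markers (Dpp4, Cd55, Arl4d and Pi16) summed to 508.7 CPM or more in every ASC2 library against at most 417.6 CPM in every ASC1 library. The 3 ASC1 libraries of ovariectomized females stood apart, with fibroblast markers at 44926 to 46771 CPM against at most 9386 CPM in the other ASC1 libraries, and with none of the 5 epithelial markers detected. Sex-chromosome transcripts went against or cut across the label in a part of the libraries, and 31 of 58 met their label (under 20 Xist reads and at least 3 reads of 4 Y-linked genes for a male, under 3 such reads for a female). No Xist was asked of a female, so control female ASC1 replicate A, with 2 Xist reads and 1 Y-linked read, met it. The paper reports low Ddx3y and Eif2s3y counts in control females and reads them as weak contamination by male mRNA. It trusts these samples because the male-enriched genes Sult1e1 and C7 were low in them, and does not discuss Xist in libraries labelled male. All 8 libraries labelled castrated male ASC1 held 13 to 97 Xist reads and at most 4 Y-linked reads, so a difference of this group from control males is a difference between labels. Results that rest on such libraries are given with and without them where both groups keep at least 2.

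Tdo2 (ENSMUSG00000028011.17) was counted in every control male library and in few others. In control male ASC1 its level was 6.98 CPM at the lowest, 12.8 at the median and 19.99 at the highest (13.1 ± 5.01, SD, n = 7), from 65 reads, and in control male ASC2 12.6, 25.5 and 39.6 CPM (26.1 ± 8.43, n = 8), from 172 reads. The 15 control male libraries held 237 of the 267 Tdo2 reads, and each had between 6 and 41. The other 43 libraries held 30 reads in 9 libraries, and 18 reads in 7 libraries when the 3 ovariectomized ASC1 libraries were left out.

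In control females, Tdo2 had reads in 1 of 8 ASC1 libraries (replicate G, 2 reads, 2.41 CPM) and in 3 of 8 ASC2 libraries (replicates D, E and G, with 3, 7 and 1 reads). Group means were 0.302 ± 0.853 CPM in ASC1 and 2.12 ± 3.91 CPM in ASC2 (n = 8 and 8), and the highest ASC2 library, replicate E, reached 11.1 CPM. Y-linked reads numbered 55 in ASC1 replicate G, and 0, 23 and 29 in ASC2 replicates D, E and G, so that of these female libraries with Tdo2 reads only D met its label. All control male libraries lay above all control female libraries of the same population, which 0.136% of the 12464 genes did in ASC1 and 0.297% in ASC2. The gap was narrow in ASC2, where the lowest male library was at 12.6 CPM. On the log2(CPM + 1) scale the male mean exceeded the female mean by 3.51 (SE 0.30) in ASC1 and 3.76 (SE 0.52) in ASC2. The summed reads gave ratios of 27.8 (95% counting interval 7.39 to 234) and 13.5 (7.38 to 27.6), which cover counting error only. In bulk RNA, fewer Tdo2-expressing cells and less Tdo2 RNA per cell cannot be told apart.

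**Figure D1:**
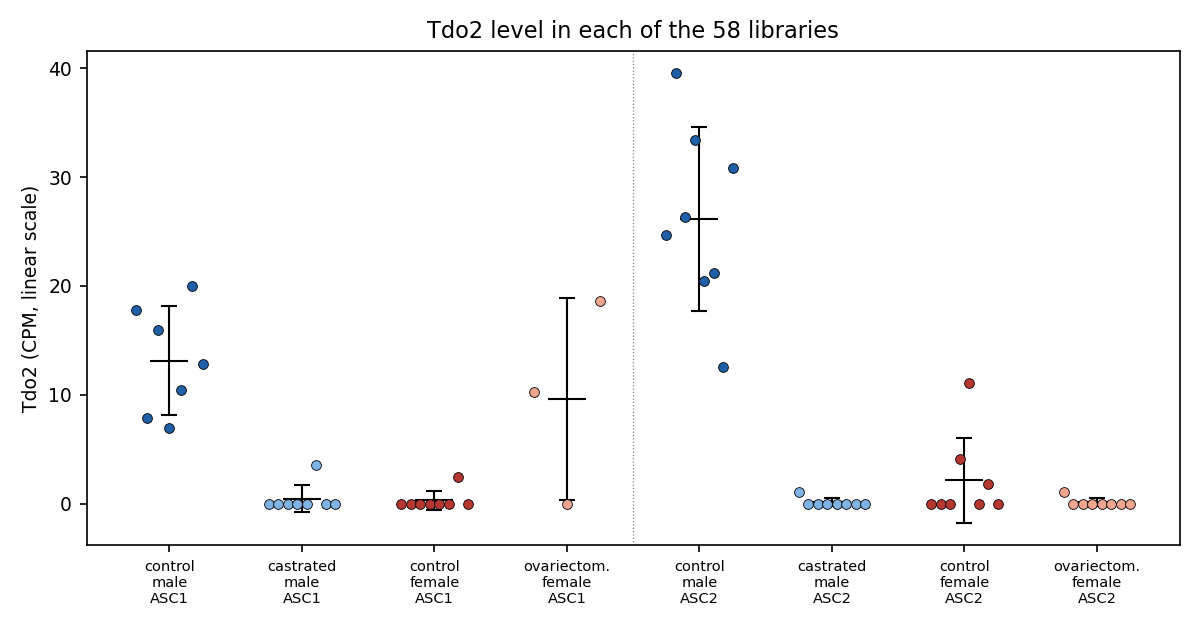
Tdo2 in CPM (linear axis) in each of the 58 libraries by group, with the mean as a bar and the SD as whiskers. The 15 control male libraries lie between 6.98 and 39.6 CPM, and of the other 43 libraries 9 have a read, among them 2 of the 3 ovariectomized ASC1 libraries and 3 of the 8 control female ASC2 libraries.

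In castrated males, Tdo2 had reads in 1 of 8 libraries of each population. ASC1 replicate N held 3 reads (3.54 CPM) and ASC2 replicate I held 1 read (1.10 CPM), with group means of 0.443 ± 1.25 and 0.137 ± 0.388 CPM (n = 8 and 8). All castrated libraries lay below all control male libraries of their population, as did 0.473% of the genes in ASC1 and 0.417% in ASC2. On the log2(CPM + 1) scale the castrated minus the control mean was -3.46 (SE 0.34) in ASC1 and -4.56 (SE 0.22) in ASC2. From summed reads, control males were 19.8-fold higher in ASC1 (interval 6.50 to 98.7) and 146-fold higher in ASC2 (25.8 to 5783), the latter against a single read.

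The castrated ASC2 libraries, unlike those of ASC1, met their label in 8 of 8 cases, with 21 to 75 Y-linked reads. With only libraries that met their label, the castration difference in ASC2 was -4.84 (SE 0.20). The sex difference was then 3.82 (SE 0.34) in ASC1 and 3.80 (SE 1.18) in ASC2, and for castration in ASC1 no library was left. Within the control males, the level of Tdo2 could be set beside Xist. In ASC1 the 3 libraries without an Xist read were at 7.83 to 17.8 CPM and the 4 with at least 20 Xist reads at 6.98 to 19.99 CPM, so the ranges overlapped. In ASC2 the 4 libraries without Xist were at 24.7 to 39.6 CPM and the 4 with Xist at 12.6 to 30.9 CPM. The control male libraries with Xist also held Y-linked reads, 5 to 7 in ASC1 and 8 to 32 in ASC2. Tdo2 was at 0 in 7 of the 8 castrated ASC2 libraries, which held Y-linked reads. The part of the sex-chromosome content of a library in the level of Tdo2 was not tested.

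In ovariectomized females, Tdo2 had reads in 2 of 3 ASC1 and in 1 of 8 ASC2 libraries. All 8 ASC2 libraries but replicate I (1 read, 1.05 CPM) were at 0, for a mean of 0.131 ± 0.371 CPM. The 3 ASC1 libraries were at 10.3 CPM (replicate L, 9 reads), 0 (replicate N) and 18.6 CPM (replicate P, 3 reads), for a mean of 9.62 ± 9.31 CPM. Replicates N and P were shallow, with 256565 and 188599 reads in all. The ovariectomized ASC1 and control female ASC1 libraries overlapped, with a log2 difference of 2.37 (SE 1.34), which was 1.53 without replicate P and 3.67 without replicate N. In ASC2 the difference was -0.80 (SE 0.51), also with overlap. Between the populations of ovariectomized females the ASC2 minus ASC1 difference was -2.47 (SE 1.32), with overlap at 0, and lay between -3.76 and -1.62 with each ASC1 library left out in turn.

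Ordered by mean level, control male ASC2 stood first, followed by control male ASC1, ovariectomized ASC1, control female ASC2, castrated ASC1, control female ASC1, castrated ASC2 and ovariectomized ASC2. Control male ASC2 exceeded ASC1 by 0.96 (SE 0.27) on the log2 scale, or 2.25-fold from summed reads (1.68 to 3.04), though the 2 groups overlapped between 12.6 and 19.99 CPM. Ovariectomized ASC1 had a spread that took in control male ASC1 above it and control female ASC2 below it, and the last 5 groups overlapped each other at 0. ASC2 and ASC1 of control females differed by 0.71 (SE 0.54) and those of castrated males by -0.14 (SE 0.30), each within the spread.

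Markers of cell types were set beside Tdo2. In ASC2 the 5 fibroblast markers did not overlap between control males (7738 to 12759 CPM) and castrated males (3380 to 7696 CPM), while in ASC1 they overlapped (5482 to 8175 against 4327 to 5807 CPM), and in control female ASC2 they ran from 4405 to 15878 CPM (median 9302), across both ranges. The 4 ASC2 markers summed to 1730 to 5023 CPM in control male ASC2 (median 3314), 564.4 to 3144 CPM in castrated ASC2 (median 1649) and 1280 to 5933 CPM in control female ASC2 (median 2863). Most of this sum was Pi16, with means of 2970, 1591 and 2743 CPM in the same order. The 9 macrophage markers summed to 579.0 to 6491 CPM in control male ASC1 and 631.8 to 938.1 CPM in castrated ASC1, and to 730.0 to 2004 CPM in control male ASC2 and 1378 to 6628 CPM in castrated ASC2. The 4 adipocyte markers (Adipoq, Lep, Plin1 and Cidec) were low, at 1.7 to 30.6 CPM in control male ASC1 against 0 to 2.9 CPM in castrated ASC1, and 1.2 to 23.4 against 0 to 16.6 CPM in ASC2. The 4 endothelial markers (Pecam1, Cdh5, Kdr and Cldn5) summed to 10.6 to 38.9 CPM in control male ASC2 against 36.8 to 92.6 CPM in castrated ASC2 and 27.5 to 58.7 CPM in control female ASC2. The 4 mesothelial markers (Msln, Upk3b, Lrrn4 and Wt1) had a median of 0.872 CPM in control male ASC1 (0 to 39.1), 41.0 CPM in control female ASC1 (0 to 82.0) and 91.6 CPM in castrated ASC1 (0 to 146.5). The 4 smooth muscle markers had medians of 1122, 1654 and 2384 CPM in the same order of ASC1 groups, with overlapping ranges. Most of that sum was Acta2 and Tagln, with means of 713 and 347 CPM in control males and 1073 and 881 CPM in castrated males. Mylk was at 37.6 and 45.4 CPM in these groups, while Myh11 was lower in castrated males (2.76 against 3.82 CPM). In the population given, the medians of endothelial, mesothelial and smooth muscle markers were thus higher in control females and castrated males than in control males, and those of fibroblast and ASC2 markers were lower in castrated than in control male ASC2. Macrophage medians in control males, control females and castrated males were 682, 2703 and 754 CPM in ASC1. In ASC2 they were 815, 1090 and 1906 CPM. Mesothelial medians in ASC2, in the same order, were 1.71, 0.917 and 3.33 CPM, so control females were not higher there. The part of any of these in the level of Tdo2 was not tested.

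Short stretches of the Tdo2 promoter are shown because hormone receptor sites are what a reader would look for at a gene with this pattern. The RefSeq window of 250 bases before to 50 after the annotated start (build GRCm38.p6, minus strand of chromosome 3, while the counts were made on GRCm39) was searched on both strands for 6 motifs. AGAACA, the half-site of steroid receptors such as the androgen receptor, was not found in it and occurred in 19.0% of 32851 promoter windows. The full palindromes of the androgen and glucocorticoid receptors and of the estrogen receptor were also not found, and occurred in 0.00913% and 0.0700% of the windows. TATAAA, the letters of a TATA box, was found once, at -229, and occurred in 13.6% of windows. Whether it acts as a TATA box at that position was not tested. CCAAT was found once and occurred in 37.4%. GCGTG, the core of the aryl hydrocarbon receptor site, was also found once and occurred in 32.4%. No match says only that these letters are not in this window. The capitals mark the motif, which for the last 2 lines reads on the opposite strand, and positions are counted from the annotated start.
Tdo2 TATAAA at -229, chr3:81975940-81975969: ttctatgttggaTATAAAagctcaacttgg
Tdo2 CCAAT at -78, chr3:81975790-81975819: aagctgggtgctgATTGGctgtgtctggca
Tdo2 GCGTG at -194, chr3:81975906-81975935: ttagagggtttggCACGCcctgctagcaaa

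Among the genes next to Tdo2 on the chromosome, Ctso, which encodes cathepsin O, was also lower in mean level in castrated than in control male ASC2, at 29.6 ± 8.39 against 72.8 ± 36.4 CPM (n = 8 and 8), but stood at 61.6 ± 28.6 CPM in control female ASC2 (n = 8). In ASC1 Ctso was at 35.9 ± 8.59 CPM in control males, 29.4 ± 7.73 CPM in castrated males and 31.8 ± 12.4 CPM in control females (n = 7, 8 and 8), and at 255.5 ± 22.7 CPM in ovariectomized females (n = 3). Pdgfc was at 6.68 ± 4.18 CPM in control male and 7.08 ± 4.35 CPM in castrated ASC2. In ASC1 Pdgfc was at 7.24 ± 4.18 CPM in control males and 4.21 ± 1.40 CPM in castrated males. Gucy1b1, a subunit of soluble guanylate cyclase, was at 5.15 ± 3.17 CPM in control male and 14.1 ± 7.73 CPM in castrated ASC1. In ASC2 Gucy1b1 was at 2.71 ± 2.48 CPM in control males and 4.12 ± 3.30 CPM in castrated males. The castrated ASC1 libraries did not meet their label. Asic5 had no read. These neighbours were not tested against Tdo2.

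Of the other enzymes that can open or bypass the same step, none was counted like Tdo2. Ido1 (ENSMUSG00000031551.13) had 7 reads in 5 of 58 libraries, at most 2 in any. It had no read in control male ASC1, which allows up to 0.540 CPM over the group (3 counts), and 1 read in control male ASC2. Its relative Ido2 had 17 reads in 11 libraries, and Il4i1, a secreted amino acid oxidase that also acts on tryptophan, had 27 in 14. Per kilobase of transcript, control male levels in ASC1 and ASC2 were 3.82 and 7.62 CPM per kb for Tdo2, 0 and 0.119 for Ido1, 0.0829 and 0.0560 for Ido2, and 0.545 and 0.468 for Il4i1.

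Afmid (ENSMUSG00000017718.16), the formamidase that acts right after Tdo2, was counted at a similar depth (273 reads in 42 libraries) but without the pattern of Tdo2. Its level was 5.83 ± 3.50 CPM in control male ASC1 (n = 7; 0 at the lowest, 5.97 at the median, 9.59 at the highest) and 7.67 ± 8.51 CPM in castrated ASC1 (n = 8; 0, 6.21 and 20.4). In ASC2 it was at 7.57 ± 4.41 CPM in control males, 5.43 ± 4.59 CPM in castrated males and 5.13 ± 4.69 CPM in control females (n = 8 each). All groups but 1 overlapped from 0 upward, and the edgeR fit over all genes gave log2 fold changes of -0.45 (SE 0.67) and 0.47 (SE 0.65) for male against female controls in ASC1 and ASC2, and of 0.47 (SE 0.66) and -0.37 (SE 0.65) for castration. Adjusted p-values were 0.92, 0.75, 0.84 and 0.79, so a change was not detectable at this depth.

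The exception was ovariectomized ASC1, where none of the 3 libraries held an Afmid read against 41 reads in control female ASC1 (8.11 ± 6.90 CPM, n = 8). Taken against a floor of 3 counts over the group (2.39 CPM), Afmid was at least 3.61-fold lower than the 8.64 CPM of the summed control reads. This passed the edgeR test (adjusted p = 0.0323) in a comparison where 34.8% of all genes passed. Leaving out any of the 3 libraries ended the call, with adjusted p-values of 0.225 without replicate L, 0.0586 without N and 0.0545 without P, and with only libraries that met their label it was 0.0567.

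The enzymes after kynurenine were at or near the limit of detection. Kmo, the hydroxylase at the branch toward quinolinate, had 8 reads in 6 libraries, with 1 read in control males of each population. Kynu, which cleaves the side chain, had 4 reads in 4 libraries. Haao, which makes the precursor of quinolinate, had 11 reads in 9 libraries and none in any ASC2 library of control males or control females. The levels of these 3 genes do not allow a comparison between groups at this depth. In control males, Tdo2 was counted in all 15 libraries, and Ido1, Kmo, Kynu and Haao each in at most 2 libraries of a population.

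**Figure D2:**
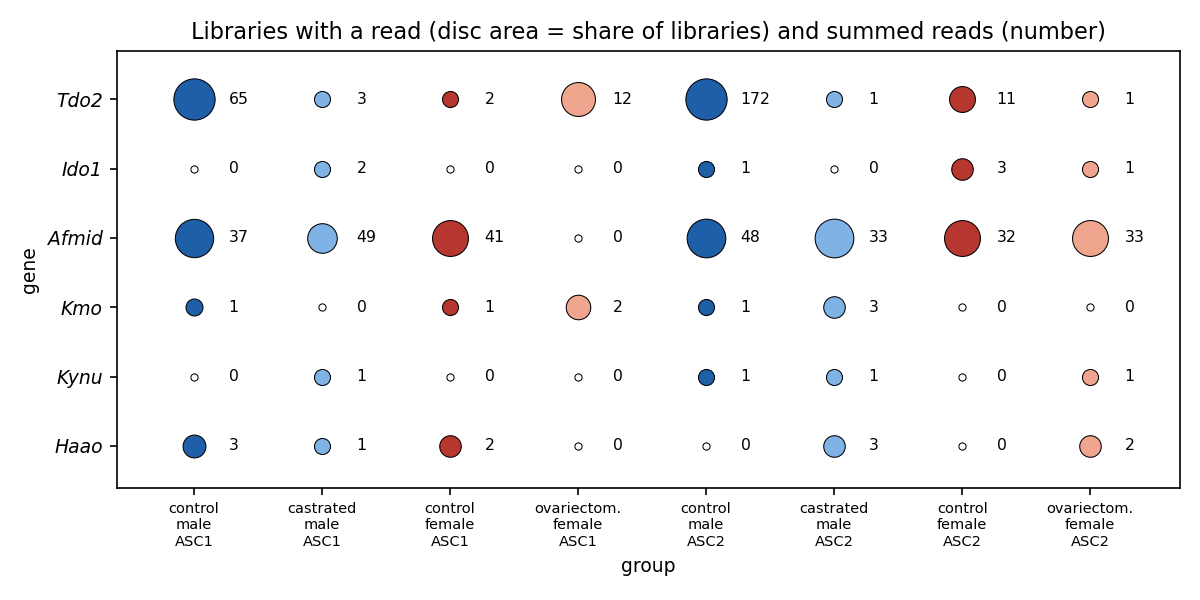
Share of libraries with a read (disc area, open discs for none) and summed reads (number) of the 6 genes in the 8 groups. Tdo2 has 65 and 172 reads in the control male groups, Afmid has 32 to 49 reads in all groups but ovariectomized ASC1, and Ido1, Kmo, Kynu and Haao have at most 3 reads in any group.

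The wider pathway was described by 44 other genes in 5 lists, of which 28 were tested. Between control males and females 1 of the 28 passed in ASC1, where 0.289% of all genes did, and 1 in ASC2, where 6.50% did, in both cases Inmt and in both higher in males. The median log2 fold change of the 28 was -0.05 in ASC1 and -0.04 in ASC2, beside 0.013 and -0.0022 over all genes. After castration, 1 of 28 passed in ASC1 (2.36% of all genes) and 2 in ASC2 (6.96%), with medians of -0.13 and 0.02 beside -0.01 and 0.0044.

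None of the 5 tested kynurenine enzymes other than Tdo2 (Afmid, Kyat1, Kyat3, Got2 and Qprt) passed in these 4 comparisons, and neither did any of the 9 genes of NAD synthesis or the 5 transporters of tryptophan and kynurenine. Afmid, Kyat1, Kyat3 and Qprt had only 273, 297, 290 and 199 reads in the 58 libraries. At this depth small changes of these genes could not be detected. Of these 76 tests, 5 had an unadjusted edgeR p below 0.05 (Got2, Slc16a10, Slc7a8 and, in 2 comparisons, Slc3a2), and DESeq2 called none. Kyat1, a kynurenine aminotransferase, was at 13.3 CPM in control male and 6.48 CPM in castrated ASC2 (log2 fold change -0.97, SE 0.51, adjusted p = 0.26 by edgeR). Got2, the mitochondrial aspartate aminotransferase that also makes kynurenic acid, was far more abundant, at 95.2 and 81.8 CPM per kb in ASC1 and ASC2 of control males, and its log2 fold changes lay between -0.12 and 0.31. Qprt, which feeds quinolinate into NAD, was at 5.00 CPM in control male and 3.65 CPM in castrated ASC1 (-0.19, SE 0.66).

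**Figure D3:**
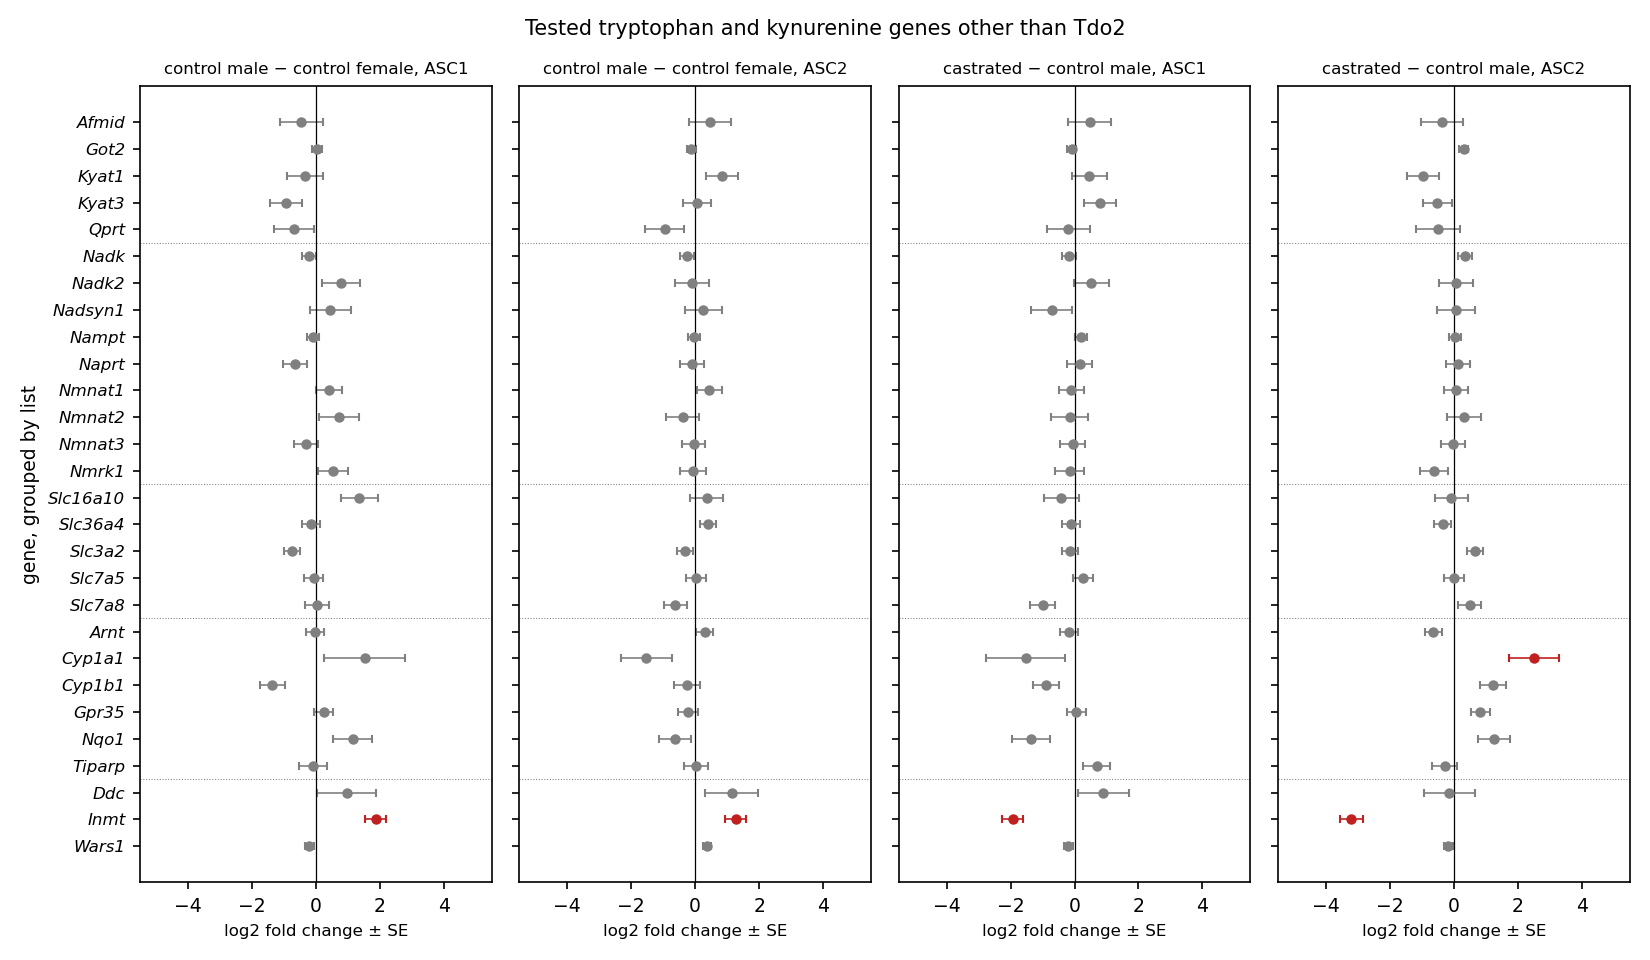
Fitted log2 fold changes with SE (whiskers) of the 28 tested genes in the sex and castration comparisons of ASC1 and ASC2, grouped by list and separated by dotted lines. Red points passed an adjusted p of 0.05 in edgeR, which was Inmt in all 4 panels and Cyp1a1 in castrated ASC2.

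Inmt (ENSMUSG00000003477.6), which methylates tryptamine and other indoleamines, was the listed gene nearest to Tdo2 in pattern. It was at 451.5 ± 130 CPM in control male ASC1 (n = 7; 248 at the lowest, 444 at the median, 621 at the highest) against 123 ± 60.1 CPM in control females (n = 8; 68.3, 107 and 249) and 118 ± 82.7 CPM in castrated males (n = 8; 33.2, 103 and 299.7). In ASC2 it was at 313 ± 136 CPM in control males (131, 372 and 509), 131 ± 83.7 CPM in control females (48.9, 109 and 299) and 35.1 ± 17.2 CPM in castrated males (7.65, 34.9 and 59.9), with n = 8 in each. Castrated and control male ASC2 did not overlap, and the other 3 pairs did.

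The log2 fold change of Inmt between control males and females was 1.87 (SE 0.33, adjusted p = 0.000875, edgeR) in ASC1 and 1.27 (SE 0.32, adjusted p = 0.00893) in ASC2. After castration Inmt fell by 1.94 in ASC1 (SE 0.33, adjusted p = 0.000196) and by 3.20 in ASC2 (SE 0.36, adjusted p = 4.35e-09). Under the alternatives tried, adjusted p stayed between 2.77e-04 and 0.0452 in the ASC2 comparison of sexes. The sex comparison of ASC1 and both castration comparisons also kept their calls in the alternatives that could be run. For castration in ASC1 these leave out the one with libraries that met their label, since none of the 8 castrated libraries met it.

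Between the populations of ovariectomized females 35.4% of all genes passed in edgeR, Inmt among them. For Tdo2 these populations overlapped at 0. Inmt was at 2226 ± 553 CPM in the 3 ASC1 libraries (1858, 1960 and 2862), all above every other library of the series. Of all genes, 7.80% were higher in each of these 3 libraries than in each control female ASC1 library. It was at 39.1 ± 8.49 CPM in ASC2 (n = 8; 26.2, 38.6 and 52.7). Against control females it rose by 4.18 in ASC1 (SE 0.40, adjusted p = 1.37e-12, edgeR) and fell by 1.75 in ASC2 (SE 0.35, adjusted p = 0.00195), where 2.09% of all genes passed. With only libraries that met their label, the ASC2 change was -0.94 with an adjusted p of 0.83, from 2 control female libraries.

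**Figure D4:**
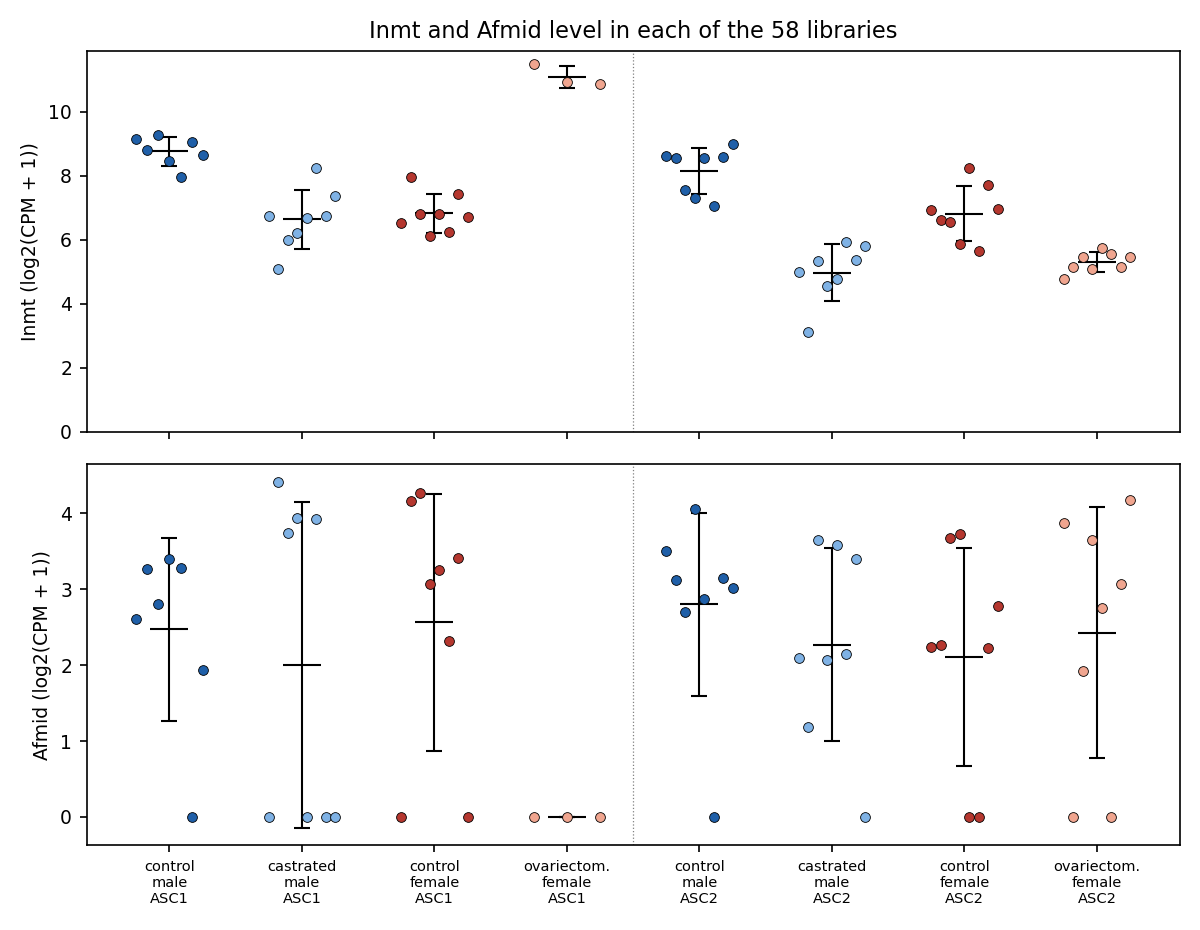
Inmt (top) and Afmid (bottom) as log2(CPM + 1) in each of the 58 libraries by group, with the mean as a bar and the SD as whiskers. Inmt is higher in control males than in castrated males in both populations and highest in the 3 ovariectomized ASC1 libraries, and Afmid is at 0 in those 3 libraries and overlaps between all other groups.

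The list named for the aryl hydrocarbon receptor held 10 genes, of which 6 were tested. Gpr35 was placed in this list as a receptor for kynurenic acid. The receptor gene Ahr itself had 66 reads in 30 libraries and was not tested, and Cyp1a2 had no read. Cyp1a1, the best-known target of the receptor, was at 12.2 ± 19.96 CPM in castrated ASC2 against 1.69 ± 2.17 CPM in control males (n = 8 and 8), and rose by 2.50 (SE 0.78, adjusted p = 0.0426, edgeR), with overlap and a single library that held 42 of the 65 reads of castrated ASC2. The call ended in DESeq2 (adjusted p = 0.19), with only the groups compared (0.092), with libraries that met their label (0.13) and without that library, replicate K (1.28, SE 0.76, adjusted p = 0.33). In ovariectomized ASC2, Cyp1a1 fell (adjusted p = 0.0387, edgeR), from 33 reads to 1, a ratio of 31.2 (95% counting interval 5.22 to 1267), and DESeq2 did not call it (adjusted p = 0.17). Nqo1, a quinone reductase and further target, fell by 2.32 (SE 0.56, adjusted p = 0.0128, edgeR), and with only the groups compared this call ended (adjusted p = 0.072). With Inmt these made 3 of 28, beside 2.09% of all genes. Control female ASC2 replicate E held 13 of the 33 Cyp1a1 reads and 262 of the 602 Nqo1 reads, and without it neither passed (adjusted p = 0.15 for each, edgeR). With libraries that met their label the log2 fold changes of Cyp1a1 and Nqo1 turned to 1.02 and 0.96, both with an adjusted p of 1.00.

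In ASC1, ovariectomy gave 8 calls of 28, beside 34.8% of all genes, with 3 genes higher and 5 lower and a median of -0.24 beside -0.34 over all genes. The largest were Slc7a5, Gpr35, Afmid and Inmt. Slc7a5, the large neutral amino acid transporter that carries tryptophan and kynurenine, had no read in the 3 libraries against 134 in control females, and was at least 11.8-fold lower (adjusted p = 1.53e-06, edgeR). Gpr35, a receptor for kynurenic acid, had none against 86 and was at least 7.58-fold lower (adjusted p = 3.17e-06). Leaving out replicate L or N, or keeping libraries that met their label, left 5 calls.

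Between the populations, 2 of 28 passed in control males, where 12.2% of all genes did, 4 in control females (6.11%), 4 in castrated males (9.09%) and 9 in ovariectomized females (35.4%). Cyp1b1, a monooxygenase and receptor target, fell from ASC1 to ASC2 by 1.55 in control males (166.8 ± 115 to 57.7 ± 32.1 CPM, adjusted p = 0.00796, edgeR) and by 2.66 in control females (428 ± 270 to 67.7 ± 19.5 CPM, adjusted p = 3.22e-06). With libraries that met their label Cyp1b1 was at -1.97 in control males (adjusted p = 0.017) and -0.37 in control females (adjusted p = 0.91). Gpr35 fell by 0.99 in control males (20.7 ± 8.79 to 10.1 ± 4.41 CPM, adjusted p = 0.0209), a call that ended without a count filter (adjusted p = 0.078), with only the groups compared (0.062) and with libraries that met their label (0.23).

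In control females Nqo1 rose from ASC1 to ASC2 by 2.65 (adjusted p = 0.00126, edgeR) and Slc3a2, the partner chain of Slc7a5, fell by 0.94 (adjusted p = 0.00847). Cyp1a1 had no read in ASC1 against 33 in ASC2 and was at least 9.23-fold higher (adjusted p = 0.00656). Without replicate E of ASC2 the change of Nqo1 was 2.01 (adjusted p = 0.0209) and the bound for Cyp1a1 6.30-fold (20 reads). With libraries that met their label none of these passed, and Nqo1 turned to -1.63. In castrated males, whose ASC1 libraries did not meet their label, Nqo1 rose by 3.49 (15.5 ± 7.92 to 179.8 ± 270.0 CPM, adjusted p = 2.67e-05, edgeR) and Cyp1a1 was at least 19.9-fold higher (no read against 65, adjusted p = 0.000475). Replicate K of castrated ASC2 held 582 of the 986 Nqo1 reads and 42 of the 65 Cyp1a1 reads of its group. Without it Nqo1 was at 84.8 ± 29.7 CPM (n = 7) and rose by 2.42 (adjusted p = 0.00113), and Cyp1a1 was at least 8.06-fold higher (23 reads, adjusted p = 0.0047). Inmt fell by 1.79 (adjusted p = 0.00036) and Slc7a5 by 1.03 (adjusted p = 0.023, and 0.065 without replicate K) in the same comparison. In ovariectomized females the largest were Slc7a5, Gpr35, Inmt and Cyp1b1, of which Inmt fell by 5.85 (adjusted p = 3.85e-17) and Cyp1b1 by 1.97 (adjusted p = 0.00181), while Slc7a5 and Gpr35 were at least 12.9-fold and 7.44-fold higher in ASC2 (adjusted p = 1.01e-06 and 4.72e-06).

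The sex difference did not differ between ASC2 and ASC1 for any of the 28 in edgeR, where 0.128% of all genes passed, though 2 had an unadjusted p below 0.05 (Nqo1 and Wars1) and DESeq2 called Wars1. For castration, the fold change of Cyp1b1 was -0.89 in ASC1 and 1.22 in ASC2, with a difference of 2.11 (SE 0.57, adjusted p = 0.0289, edgeR), where 2.41% of all genes passed. This call ended with the replicate block (adjusted p = 0.084), and the 8 castrated ASC1 libraries that enter it went against their label. Within control male ASC1, Cyp1b1 was at 257.2 to 304.5 CPM in the 3 libraries that met their label and at 64.5 to 93.3 CPM in the 4 that did not. In control female ASC1 it was at 58.9 to 229.6 CPM in the 3 that met it and at 486.1 to 702.7 CPM in the 5 that did not, so that its level split with the sex-chromosome transcripts within both groups.

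Over the 58 libraries, the 10 genes closest to Tdo2 in Pearson r of log2(CPM + 1), of 10541 genes with a mean of at least 5 CPM, were Sult1e1 (0.86), C7 (0.84), Cldn10 (0.72), Slco2b1 (0.69), Inmt (0.67), Pir (0.67), Ecm1 (0.65), Dpep1 (0.65), Cdh13 (0.64) and Gm11816 (0.63). These values describe points that share groups, library depth and the 3 ovariectomized ASC1 libraries. Afmid stood at 0.056. The lowest were Slc25a3 (-0.66), Atp5b (-0.64), Hspa9 (-0.60), Snrpf (-0.60) and Pfn1 (-0.60).

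The likeness of these genes to Tdo2 ended at the ovariectomized ASC1 libraries for Sult1e1, estrogen sulfotransferase. It had reads in all 15 control male libraries (49.8 ± 40.1 CPM in ASC1 and 84.6 ± 38.7 CPM in ASC2), in 2 control female ASC1 libraries and in no other, so that Tdo2 was counted in 2 ovariectomized ASC1 libraries where Sult1e1 was not. C7, complement component C7, was at 147 ± 123 CPM in those libraries, 196 ± 78.2 CPM in control male ASC1 and 3.77 ± 5.37 CPM in castrated ASC1. Slco2b1, an organic anion transporter, was at 474 ± 226 CPM there, 69.7 ± 16.6 CPM in control male ASC1 and 20.4 ± 14.1 CPM in castrated ASC1. Dpep1, a dipeptidase, was at 2116 ± 261 CPM there and at 843 ± 145 and 388 ± 108 CPM in control and castrated male ASC2. Seen as deviations from the group means, the closest genes were Pde3a (r 0.55), Cd9 (0.53), Aaed1 (0.52), Dpep1 (0.51) and Irak2 (0.51), while Sult1e1 stood at 0.29 and C7 at 0.12. The log2 spread of Tdo2 was widest in ovariectomized ASC1 (SD 2.28, n = 3) and control female ASC2 (SD 1.40, n = 8). In control male ASC1 and ASC2 its SD was 0.54 and 0.49, so these r values lean on libraries with few Tdo2 reads.

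**Figure D5:**
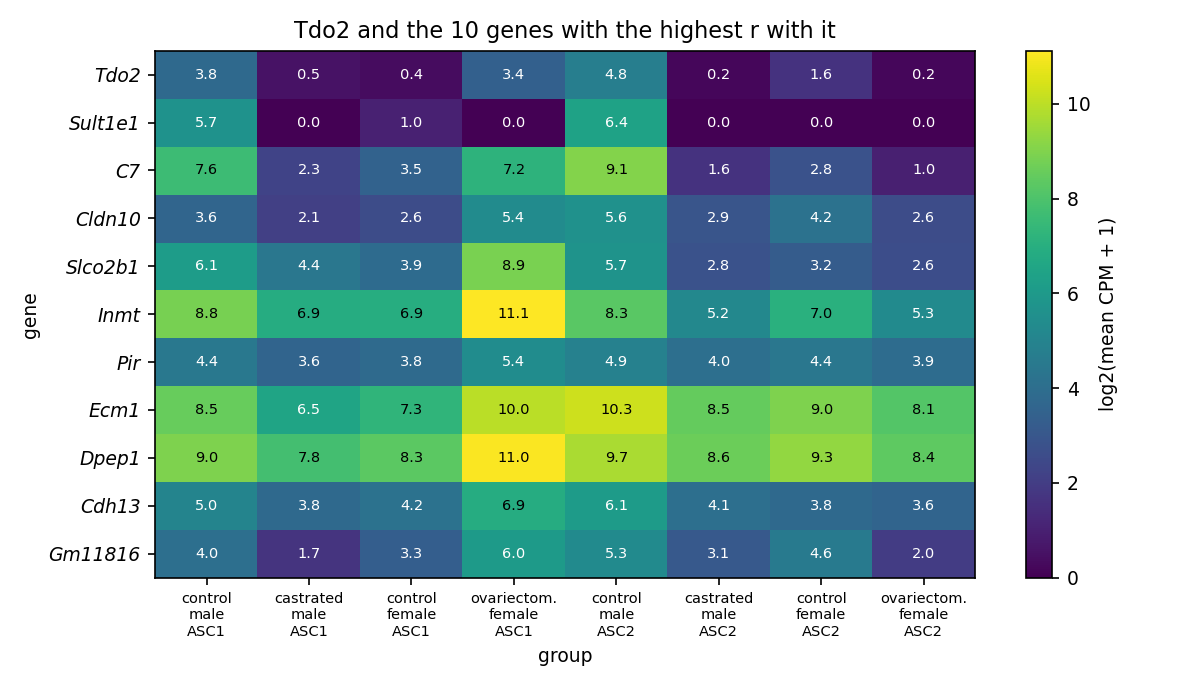
Group means as log2(mean CPM + 1) of Tdo2 and of the 10 genes with the highest r with it over 58 libraries (colour scale and printed values). All 11 genes are higher in control males than in castrated males of the same population, and ovariectomized ASC1 is at 0 for Sult1e1 and above control male ASC1 for the 8 genes below C7.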

How the data were processed

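Bulk Smart-seq3 libraries of sorted ASC1 and ASC2 were available for 8 groups, 58 libraries in all. The authors trimmed adapters with NGmerge, checked quality with STAR 2.7.10a alignments and other tools, quantified reads on Gencode vM32 transcripts of GRCm39 with Salmon 1.9.0, left out libraries below 8500 detected genes, and deposited unnormalized estimated counts with UMI and other reads added together. Salmon can split reads between transcripts that share sequence, and reads without UMIs include PCR copies.

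Estimated counts were rounded to whole numbers in R 4.3.3. Libraries were grouped by their titles. Genes that reached 5 reads in more than 3 libraries (12464) were tested with edgeR 4.0.16 (TMM, estimateDisp, glmQLFit, glmQLFTest) in a fit with 1 coefficient per group, at an adjusted p of 0.05 (Benjamini-Hochberg over all genes). The biological coefficient of variation was 35.6%. Tdo2 was described by the difference of means of log2(CPM + 1), with the SE from the SDs of both groups and without a p-value, and ratios of summed reads carry exact 95% binomial counting intervals. Levels are on linear CPM unless log2 is named. A group without a read was set at a floor of 3 counts over the group.

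The members and lists were chosen with earlier results of these data known. The rule for named genes took the 6 members, then the listed genes past the threshold (all if 5 or fewer, otherwise the 4 with the largest change and at least 5 CPM in either group), and by Pearson r with Tdo2 the 10 highest, the 5 lowest and the 5 highest for deviations from group means. Neighbouring genes, Ido2, Il4i1, Kyat1, Got2, Qprt, Ahr and Cyp1a2 were named beyond it after their values were seen.

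Alternatives were DESeq2 1.42.0, RLE size factors, no count filter, filterByExpr, scaling by library size only, only the groups compared, a block by replicate letter, each ovariectomized ASC1 library left out, a pseudocount of 0.1 and edgeR's fitted fold change for Tdo2. Keeping only libraries whose sex-chromosome transcripts met the label, and leaving out the library with most Nqo1 reads in castrated male ASC2 and in control female ASC2, were added after the data were seen. In a test on simulated data for castrated against control male ASC2, 191 of 200 genes changed 4-fold were recovered with 12 false calls among 12464 genes. The changed genes were drawn from those with a mean of at least 5 reads per library. All genes were given the same dispersion and, apart from the change, equal group means. The recovery thus does not cover rarer listed genes such as Afmid, with 273 reads in 58 libraries. Symbols came from an older Gencode release by identifier (12371 of the genes tested), and promoters from RefSeq on GRCm38.p6. Intervals were computed in Python 3.11.15 with scipy 1.17.1.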

Additional observations from a re-analysis of the deposited data

Results flagged for a closer look

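Single libraries stood far from the rest of their group for Tdo2 in 4 groups, each time because a few reads met libraries without any: control female ASC1 replicate G at 2.41 CPM (2 reads), castrated ASC1 replicate N at 3.54 CPM (3 reads), castrated ASC2 replicate I at 1.10 CPM (1 read) and ovariectomized ASC2 replicate I at 1.05 CPM (1 read). Control female ASC1 replicate G held 55 Y-linked reads beside 6 Xist reads. For Afmid, control male ASC1 replicate G and control male ASC2 replicate F stood apart at 0 CPM. For values without ties, chance flags about 1 in 20 groups, and 21 groups of values were looked at. In the 4 Tdo2 groups all libraries but 1 were at 0, so any read set the flag and this rate does not apply.

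The difference between groups labelled operated and control was not the same in ASC2 and ASC1 for 9 listed genes. This was a test of the difference itself (edgeR, ASC2 change minus ASC1 change on the log2 scale). For castration this was Cyp1b1, at 2.11 (adjusted p = 0.0289), and the replicate block ended this call (adjusted p = 0.084). It was 1 of 28, beside 2.41% of all genes. The castrated ASC1 libraries that enter it did not meet their label, so it is a difference between labels. After ovariectomy, where the 3 ASC1 libraries enter every value, Slc7a5 was at 8.27 (adjusted p = 1.55e-07), Gpr35 at 7.03 (2.36e-06), Afmid at 5.86 (0.0363), Slc3a2 at 2.09 (0.000315), Got2 at 0.95 (0.00328), Slc36a4 at -1.11 (0.0452), Slc7a8 at -1.87 (0.0152) and Inmt at -5.93 (2.66e-13). The replicate block also ended the calls of Afmid (adjusted p = 0.075) and Slc36a4 (0.086), and leaving out control female ASC2 replicate E ended that of Slc36a4 (0.0503). The values of Slc7a5, Gpr35 and Afmid are fitted against ASC1 libraries without a read and are no measure of size. For ovariectomy, 34.8% of all genes tested passed this test.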

How the results depend on the processing

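Each of the 10 Tdo2 differences kept its direction in every alternative run, and 50 values moved by less than the spread between replicates. With a pseudocount of 0.1 CPM the sex difference became 6.37 in ASC1 and 5.91 in ASC2, castration -6.30 and -7.52, ovariectomy in ASC1 4.17 and ASC2 against ASC1 of ovariectomized females -4.31. The fold change fitted by edgeR was 4.44 for sex in ASC1, -6.19 for castration in ASC2, 4.00 and -2.58 for ovariectomy in ASC1 and ASC2, and for ASC2 against ASC1 1.88 in control females, -1.07 in castrated males and -4.69 in ovariectomized females. With each ovariectomized ASC1 library left out, the ovariectomy difference in ASC1 lay between 1.53 and 3.67, and that of ASC2 against ASC1 between -3.76 and -1.62. These groups hold few or no reads, so the size of a difference on the log scale follows the pseudocount or prior count.

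Of the counts of listed genes that passed, 77 alternatives stayed within 1.5 times. No count filter gave 2 for sex in ASC1, 4 for castration in ASC2, 1 for the populations of control males and 2 for the castration difference between populations. DESeq2 gave 2 for sex in ASC2, 1 and 2 for the sex and castration differences between populations. Only the groups compared gave 2 and 1 for castration in ASC1 and ASC2, and 5 and 1 for ovariectomy in ASC1 and ASC2. With libraries that met their label, 1 passed for castration in ASC2, 5 and 0 for ovariectomy in ASC1 and ASC2, 1 and 0 between populations of control males and females, and 5 for the ovariectomy difference between populations. With each ovariectomized ASC1 library left out, 5 to 7 passed for ovariectomy in ASC1, 5 to 10 between its populations and 6 to 8 for the difference. Without control female ASC2 replicate E, which was chosen after seeing the data, 1 passed for ovariectomy in ASC2.

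With libraries that met their label, the sign turned for Afmid in 5 comparisons it had not passed (0.28 and -0.32 for sex in ASC1 and ASC2, -0.83 for ovariectomy in ASC2, 1.06 between populations of control females, -0.60 for the sex difference between populations), for Nqo1 (0.96 for ovariectomy in ASC2, -1.63 between populations of control females) and for Cyp1a1 (1.02 for ovariectomy in ASC2). Of the other values for single listed genes, 381 kept their side of the threshold, 57 lost it and 3 gained it. The cause was not tested, and 2 or 3 control female libraries remain in these.

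Replicate letters were not taken as pairs, since same-letter deviations of ASC1 and ASC2 did not all correlate above 0.1. They correlated at 0.067 to 0.34 in control males, -0.12 to 0.49 in control females, -0.32 to 0.087 in castrated males and -0.017 to 0.043 in ovariectomized females, and 3 of 7, 3 of 8, 1 of 8 and 1 of 3 correlated best with their own letter. Between control males and females of the same letter the range was -0.26 to 0.46 in ASC1 (median 0.27 against -0.033 for other letters, 4 of 7 best with their own) and -0.13 to 0.23 in ASC2 (2 of 8), a hint of a shared letter in ASC1. With the replicate block, Tdo2 differed between sexes by 3.48 in ASC1 and 3.76 in ASC2 and between control male populations by 0.96, and 7 in place of 9 listed genes passed between populations of ovariectomized females. The block also ended the calls of Cyp1b1, Afmid and Slc36a4 for a difference between populations. Control and operated mice share no letters, so castration and ovariectomy could not be blocked within a population.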
